A study of Mus musculus with 4 samples.

Results

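The cells described here are CD8 T cells of the mouse left ventricle that carried RNA of Ccl5 and Nkg7. They were selected on measured unique molecular identifiers (UMIs, one per captured RNA molecule). A cell needed 2 or more UMIs over Cd3e, Cd3d and Cd3g, and 2 or more over Cd8a and Cd8b1. It could hold at most 2 UMIs over Cd79a, Cd79b and Ms4a1, at most 4 over C1qa, C1qb and C1qc, and none of Ncr1. It then needed 4 or more UMIs over Ccl5 and Nkg7. The gate held 288 of 11148 cells assigned to a mouse, and 288 of 523 CD8 cells. The other 235 CD8 cells had 3 or fewer Ccl5 and Nkg7 UMIs and are called the low cells below. The working name of the gated cells was memory-like CD8 T cells with Ccl5; the data bore this name out for only some of them.

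The study profiled immune cells of the heart after DOCA-salt treatment, in which the mineralocorticoid deoxycorticosterone acetate is combined with salt to raise blood pressure, or after sham treatment. All mice were C57Bl6J, with no engineered allele named, and their age, sex and length of treatment are not given in the sources used here. Leukocytes from perfused, Liberase-digested left ventricles were enriched on CD45 beads, labelled with one hashtag antibody per mouse and 16 surface antibodies, pooled within a group and sorted as live single CD45+ cells for 5' droplet sequencing. Each group had 4 mice in 1 library, so group and library cannot be told apart, and the mouse is the replicate throughout.

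CD8 T cells recognise peptides on MHC class I. Naive CD8 cells circulate through lymph nodes, guided by the chemokine receptor Ccr7, and depend on the transcription factors Lef1 and Tcf7. Memory and effector cells keep mRNA of the chemokine Ccl5 ready for rapid release, raise the adhesion receptor CD44, and may carry Cxcr3, a receptor that guides T cells into inflamed tissue, or the chemokine Xcl1, which attracts cross-presenting dendritic cells. Nkg7 is a membrane protein of cytotoxic granules.

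Gene positions are on GRCm38 (GENCODE vM21). Ccl5 (ENSMUSG00000035042) lies on chromosome 11 at 83525778 to 83530518, Nkg7 (ENSMUSG00000004612) on chromosome 7 at 43437073 to 43438249, Cxcr3 (ENSMUSG00000050232) on chromosome X at 101731535 to 101734269, Xcl1 (ENSMUSG00000026573) on chromosome 1 at 164931644 to 164935527 and Cd8b1 (ENSMUSG00000053044) on chromosome 6 at 71322788 to 71337494. The RefSeq promoter windows (build GRCm38.p6, 250 bases before to 50 after the start, read 5′ to 3′ on the gene's strand) are shown for 3 genes that were at higher levels in the cells with more gate UMIs. Ccl5 had no entry in the table. Capitals mark matches to a T-box word (TCACACC) or a RUNX word (TGTGGTT) on either strand; factors of both families act in CD8 T cells.
Nkg7, chr7:43436888-43437187: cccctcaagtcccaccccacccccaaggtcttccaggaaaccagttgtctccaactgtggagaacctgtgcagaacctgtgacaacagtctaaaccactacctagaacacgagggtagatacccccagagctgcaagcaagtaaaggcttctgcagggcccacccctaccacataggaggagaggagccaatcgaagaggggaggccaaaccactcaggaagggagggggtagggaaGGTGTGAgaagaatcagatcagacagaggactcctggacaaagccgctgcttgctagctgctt
Xcl1, chr1:164935473-164935772: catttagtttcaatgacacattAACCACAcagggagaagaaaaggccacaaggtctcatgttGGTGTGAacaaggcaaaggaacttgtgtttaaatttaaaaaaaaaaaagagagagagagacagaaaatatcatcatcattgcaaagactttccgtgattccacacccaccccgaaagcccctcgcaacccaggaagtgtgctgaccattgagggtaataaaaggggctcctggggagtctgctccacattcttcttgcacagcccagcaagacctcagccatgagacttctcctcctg
Cxcr3, chrX:101734098-101734397: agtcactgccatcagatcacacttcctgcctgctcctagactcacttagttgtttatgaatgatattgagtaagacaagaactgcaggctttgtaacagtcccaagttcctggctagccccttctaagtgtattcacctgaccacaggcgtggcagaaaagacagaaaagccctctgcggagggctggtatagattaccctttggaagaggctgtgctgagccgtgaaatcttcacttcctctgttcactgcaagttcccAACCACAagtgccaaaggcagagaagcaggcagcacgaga
The T-box word was found in the Nkg7 window, starting at base -13 from the start site, and in the Xcl1 window at -188. The RUNX word was found in the Xcl1 window at -228 and in the Cxcr3 window at 11. All 4 matches are on the opposite strand to the gene, and neither word overlaps the other. Of 32851 windows of this length, 3.98% held the T-box word and 5.27% the RUNX word. These are matches of letters, not measured binding.

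The sham library held 4359 barcodes and 13304511 RNA UMIs, the DOCA-salt library 7600 barcodes and 29764964. After the filters 4118 and 7030 cells were assigned to a mouse, with medians of 2817 and 3250 UMIs. Gated cells were deeper in the DOCA-salt library: the per-mouse median was 5163 ± 710 UMIs in sham and 6518 ± 558 in DOCA-salt mice (SD, n = 4), which bears on any gate with a fixed UMI number. The libraries shared 41 barcodes, none of them on a gated cell. Scrublet marked 53 and 243 barcodes as doublets, of which 0 and 2 were gated cells. Sham mice gave 13, 14, 9 and 16 gated cells, and DOCA-salt mice 55, 47, 32 and 102.

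The CD8 label follows from the gate, and the memory label held only above a higher count of Ccl5 and Nkg7. Cd8b1, the CD8 beta chain, had a UMI in 52 of 52 sham and 234 of 236 DOCA-salt gated cells. Cd8b1 is a gate gene, so these counts were nearly fixed by the gate and do not test the label. The gate did not use the CD8a and CD3 antibodies. The CD8a antibody had a median of 2336.0 UMIs in sham and 2337.0 in DOCA-salt low cells. In cells with 20 or more gate UMIs it had 939.0 and 1449.5. The CD3 antibody had medians of 389.5 and 283.0 in low cells and 202.0 and 192.5 at 20 or more. Ccl5 had a UMI in 34 of 52 sham (65.4%) and 144 of 236 DOCA-salt cells (61.0%). The other gated cells entered on Nkg7 alone. Cxcr3 had a UMI in 18 sham and 91 DOCA-salt gated cells, and Xcl1 in 6 and 23. In NK cells, which share these genes, Ccl5 had a UMI in 99.6% of 501 sham and 99.3% of 1224 DOCA-salt cells.

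The gate count spanned a wide range, from cells with Nkg7 alone to cells rich in Ccl5. Gated cells with 4 to 9 UMIs numbered 22 in sham and 111 in DOCA-salt mice, those with 10 to 19 numbered 3 and 21, and those with 20 or more, called the upper range below, numbered 27 and 104. At 20 to 49 there were 8 and 24. The limit of 20 was set after seeing these values. In the range of 4 to 9, Ccl5 had no UMI in 17 of 22 sham (77.3%) and 85 of 111 DOCA-salt cells (76.6%). In the range of 20 or more it had none in 0 of 27 and 1 of 104 cells.

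Nkg7 RNA was common in CD8 cells well below the gate. It had a UMI in 57 of 78 sham low cells (73.1%, exact 95% interval 61.8 to 82.5%) and in 119 of 157 DOCA-salt low cells (75.8%, 68.3 to 82.3%). In CD4 T cells the shares were 9.68% of 93 and 14.6% of 199 cells, and in B cells, which should lack the gene, 1.95% of 2363 and 4.12% of 3129 cells. The median depths were 4846.5 and 5717.0 UMIs in low cells and 2650.0 and 2952.0 in B cells. Ccl5 had a UMI in 6.41% and 7.01% of low cells (13.7 and 13.3 CPM, counts per 1000000 RNA UMIs), a share that the limit of 3 UMIs holds down. In B cells it was in 4.87% and 9.27% (289 and 409 CPM), and 1.10% and 2.01% of B cells held 4 or more Ccl5 and Nkg7 UMIs, so B cells do not measure free RNA alone. Intervals here cover counting error only.

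The antibody to CD44, which the gate did not use, was low up to 9 gate UMIs and higher from 10 on. Its median per 1000 surface antibody UMIs was 91.3 in sham and 88.7 in DOCA-salt low cells. It was 154 and 99.9 in cells with 4 to 9 gate UMIs, 401 (3 cells) and 250 (21 cells) at 10 to 19, and 416 and 412 in cells with 20 or more. By mouse, the medians at 20 or more were 416, 466, 338 and 339 in sham and 376, 450, 519 and 389 in DOCA-salt mice. In the range of 4 to 9 they were 153, 170, 97.6 and 112 in sham and 142, 126, 93.9 and 74.7 in DOCA-salt mice, all below the upper range of any mouse. The level exceeded by 10% of low cells was passed by 6 of 22 sham and 21 of 111 DOCA-salt cells at 4 to 9, by 3 of 3 and 11 of 21 at 10 to 19, and by 26 of 27 and 87 of 104 cells at 20 or more. At the threshold itself, the 18 sham and 45 DOCA-salt cells with exactly 3 gate UMIs had CD44 medians of 88.9 and 86.5, and the 7 and 37 cells with exactly 4 had 148 and 74.3.

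**Figure D1:**
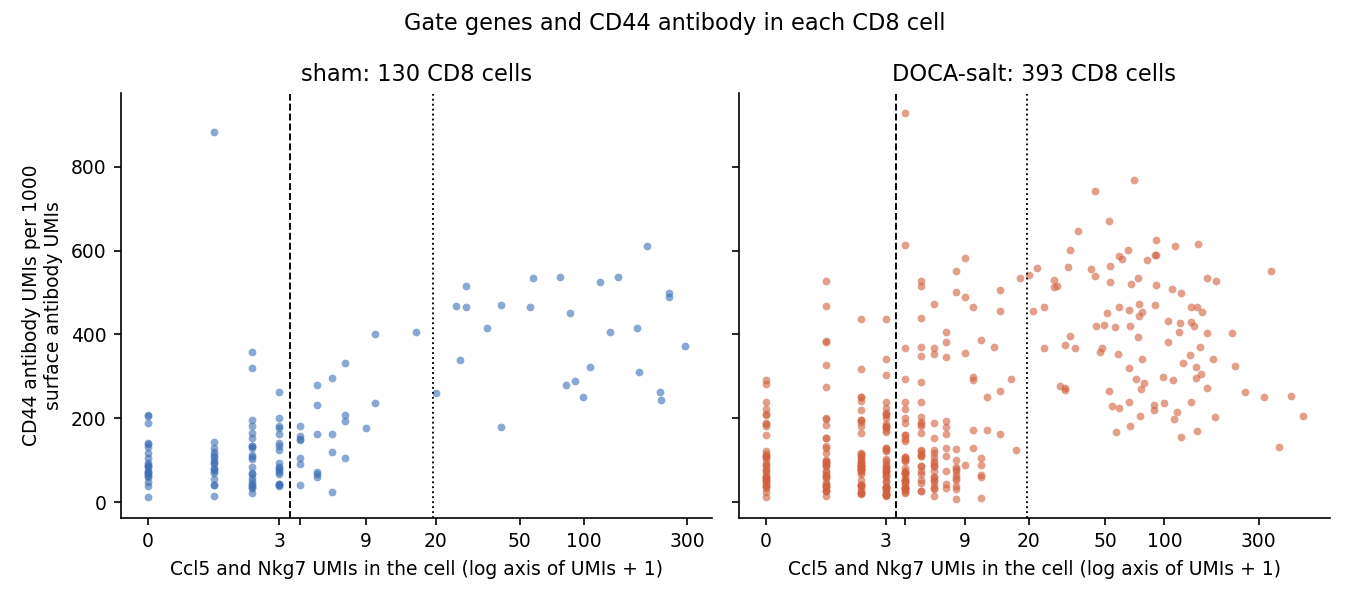
Each point is a CD8 cell; the horizontal axis is its Ccl5 and Nkg7 UMIs on a log axis of UMIs + 1, and the vertical axis its CD44 antibody UMIs per 1000 surface antibody UMIs. The dashed line marks the gate at 4 and the dotted line 20; cells right of the dotted line have medians of 416 (sham) and 412 (DOCA-salt), and cells between 4 and 9 have 154 and 99.9.

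The naive T cell genes Ccr7, Lef1 and Igfbp4 gave a similar picture, here as CPM of all RNA UMIs, with the cells of 4 mice pooled. Ccr7 stood at 831 and 808 CPM in low cells of sham and DOCA-salt mice, at 725 and 738 CPM in cells with 4 to 9, and at 223 and 199 CPM in cells with 20 or more. Lef1 went from 648 and 506 CPM to 570 and 385 and then to 129 and 121 CPM. Igfbp4, a binding protein for insulin-like growth factors, was at 459 and 540 CPM in low cells, 907 and 495 CPM at 4 to 9, and 0 and 13.7 CPM at 20 or more. The chromatin organiser Satb1, also a naive T cell gene, differed in sham cells, at 213, 69.1 and 79.0 CPM over the same ranges. In DOCA-salt cells it was at 216, 215 and 88.0 CPM. By Ccr7, Lef1, Igfbp4 and CD44, the cells at 4 to 9 lay nearer the low cells than the upper range, and by Satb1 the sham cells did not. They were not the same as low cells. In sham cells at 4 to 9 Igfbp4 was above its level in low cells. CD44 medians by sham mouse were 153, 170, 97.6 and 112 at 4 to 9 and 102, 125, 69.6 and 79.5 in low cells. In DOCA-salt mice they were 142, 126, 93.9 and 74.7 at 4 to 9 and 126, 85.7, 77.3 and 84.8 in low cells. The gated cells as a whole are therefore described by the gate and not as memory cells.

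Set beside the low cells of the same mouse, gated cells differed in granule, chemokine, S100 and killer receptor genes. This contrast is what the gate chose, so it is a description without a test. Of 1224 genes at 100 CPM or more in either class, 116 were higher and 64 lower in gated cells of all 8 mice. Ccl5 had the largest mean log2 difference, 8.42 ± 1.12 (SD, n = 8 mice), and Nkg7 had 2.27 ± 0.33; both are gate genes. Gzma, a granule protease, averaged 1048 CPM in gated and 10.6 CPM in low cells (log2 difference 4.72 ± 2.43). The calcium-binding S100a6 averaged 681 and 92.2 CPM (3.66 ± 1.95), and S100a4 had a log2 difference of 2.80 ± 1.51.

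The killer lectin-like receptors Klrk1 (NKG2D) and Klrc1 (NKG2A) had log2 differences of 3.60 ± 0.73 and 3.11 ± 1.23 in gated minus low cells. Those of Ctla2a, a cathepsin inhibitor, Cxcr3, Ly6c2, a surface marker of memory CD8 cells, and the transcriptional regulator Id2 were 3.44 ± 0.88, 2.98 ± 1.22, 2.31 ± 0.89 and 1.76 ± 0.89. The other higher genes by the same rule were Anxa2, Lgals1, Hopx and Itgb1, at 1.84 to 2.90. Most of these levels belonged to the upper range: Klrk1 was at 2.73, 0 and 380 CPM in sham cells at 0 to 3, 4 to 9 and 20 or more, and at 3.31, 1.37 and 272 CPM in DOCA-salt cells. Ly6c2 was an exception in degree, at 159, 527 and 1615 CPM in sham cells and at 227, 396 and 1758 CPM in those of DOCA-salt mice.

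The 15 lower genes with the largest differences included Lef1 (-0.95 ± 0.31), the chromatin organiser Satb1 (-0.84 ± 0.63), Ccr7 (-0.83 ± 0.49), the interleukin 7 receptor Il7r (-0.76 ± 0.52), the NF-kappaB inhibitor Nfkbia (-1.20 ± 0.71) and Klf3 (-0.78 ± 0.76). Tdrp had the largest difference, -1.30 ± 0.49. The lower differences were smaller than the higher ones, and gated cells still averaged 480 CPM of Ccr7 against 842 CPM in low cells. In sham cells at 4 to 9, Il7r, Nfkbia and Klf3 were at 656, 250 and 250 CPM. These values lay nearer the upper range (581, 215 and 258 CPM) than the low cells (1031, 528 and 438 CPM). In DOCA-salt cells at 4 to 9 they were at 669, 253 and 318 CPM, between low cells (897, 465 and 391 CPM) and the upper range (402, 144 and 212 CPM).

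**Figure D2:**
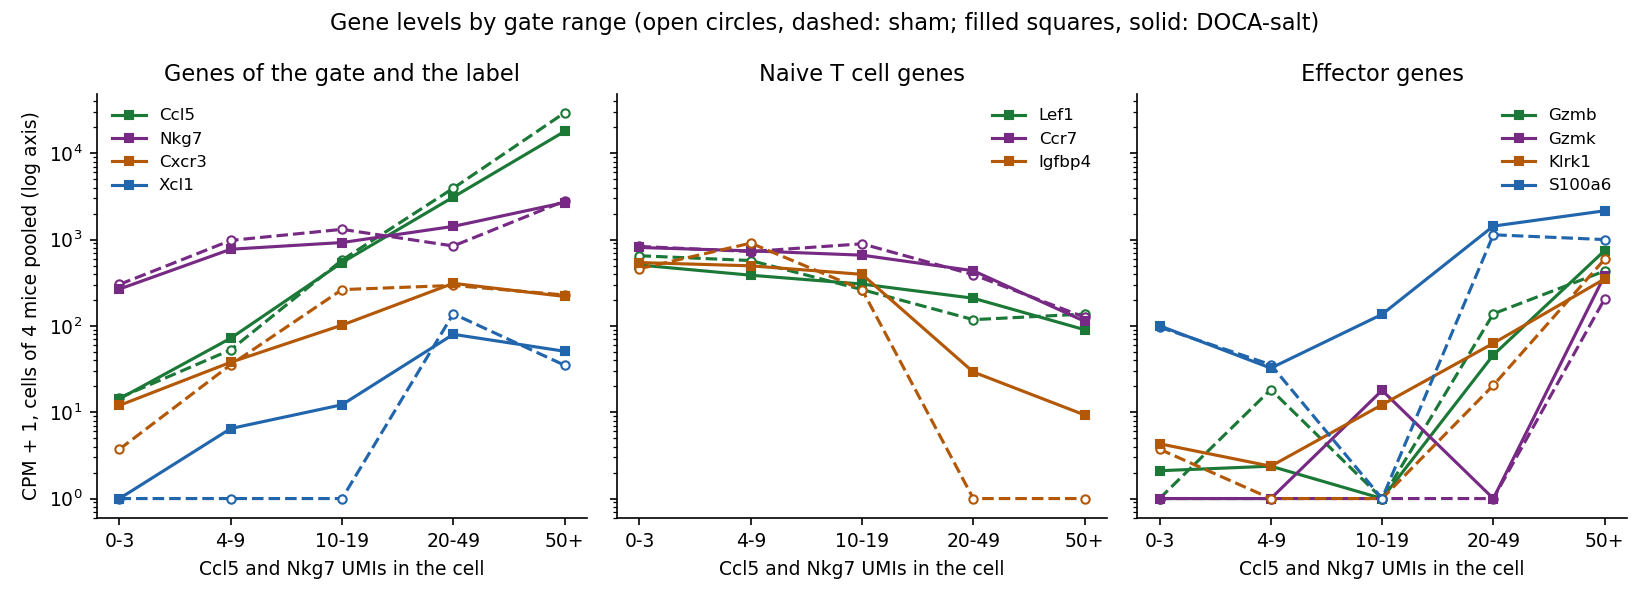
Each line is a gene; the horizontal axis is the range of Ccl5 and Nkg7 UMIs and the vertical axis CPM + 1 on a log axis, over the pooled cells of 4 mice (sham open and dashed, DOCA-salt filled and solid; the sham point at 10 to 19 rests on 3 cells). Ccr7 stays between 658 and 891 CPM up to 19 UMIs and lies at 112 to 125 CPM at 50 or more, where Gzmk and Klrk1 are at 204 to 590 CPM.

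Within the upper range, granzymes varied along the gate count. Cells with 20 to 49 gate UMIs (8 sham, 24 DOCA-salt) held Cxcr3 in 6 and 20 cells, and granzymes were rare: Gzmb was in 1 and 4 cells and Gzmk in 0 and 0. Cells with 50 or more (19 sham, 80 DOCA-salt) held Gzmb in 10 and 41, Gzmk in 11 and 50, and both granzymes in 7 and 35. Tbx21, the T-bet transcription factor, had a UMI in 0 and 11 cells at 20 to 49 and in 14 and 39 at 50 or more. A UMI of a gene depends on depth as well as level, and the gate genes themselves order these cells, so the counts are a description. The median depth was 6683.0 UMIs in sham and 7336.0 in DOCA-salt cells at 20 to 49. At 50 or more it was lower, at 4516.0 and 4604.0 UMIs.

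Among genes of tissue residency in the upper range, Cd69, also an activation marker, had a UMI in 20 of 27 sham and 68 of 104 DOCA-salt cells and the chemokine receptor Cxcr6 in 7 and 52. The integrin genes were in fewer cells, Itga1 in 3 and 18 and Itgae (CD103) in 0 and 4. Of the inhibitory receptors, Pdcd1 (PD-1) had a UMI in 1 and 18 cells, Lag3 in 1 and 13 and Tigit in 3 and 23. Ifng had a UMI in 5 and 23 cells and the proliferation gene Mki67 in 3 and 8. The NK cell adaptor genes Tyrobp and Fcer1g were at 43.1 and 14.4 CPM in sham cells of the upper range and at 25.8 and 39.4 CPM in those of DOCA-salt mice, below their levels in low cells (95.7 and 82.0 CPM for sham, 172 and 112 CPM for DOCA-salt).

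Each range held 10 to 21 different T cell receptor beta V genes. With mice pooled, the most frequent V gene of low cells was in 11.7% of 77 sham and 12.2% of 156 DOCA-salt cells with one. At 4 to 9 it was in 14.3% of 21 and 11.1% of 108 cells, and at 20 or more in 23.1% of 26 (exact 95% interval 8.97 to 43.6%) and 14.6% of 103 cells (8.39 to 22.9%). Intervals in this paragraph treat cells as independent and take no account of the mouse. The gene in 23.1% of sham cells was Trbv17, in 6 cells, of which 5 came from sham mouse 1. Within single mice, the most frequent V gene was in 11.1 to 20% of sham and 10.9 to 17.9% of DOCA-salt low cells, in 16.7 to 40.0% and 13.0 to 28.6% at 4 to 9, and in 37.5 to 71.4% and 20 to 35.3% at 20 or more. The highest share was Trbv17 in 5 of 7 upper-range cells of sham mouse 1 (71.4%, 29.0 to 96.3%). Trbv17 was in 1 of 77 sham and 3 of 156 DOCA-salt low cells, and in 0 of 18 low cells of sham mouse 1. In DOCA-salt mouse 2 it was in 6 of 17 upper-range and 1 of 44 low cells. Among the other mice it was in 1 upper-range cell, of sham mouse 3. Why Trbv17 was frequent there was not tested. The most frequent V gene of a few cells tends to take a large share. A sham mouse had only 4 to 8 upper-range cells with a V gene, so the ranges are not compared. A V gene does not define a clone.

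The first comparison of the groups asked whether DOCA-salt hearts held a larger share of gated cells. They did by the gate as set, with no overlap between groups, but cells of the upper range did not make up a detectably larger share of CD8 cells. Gated cells were 40.6, 43.8, 47.4 and 34.0% of CD8 cells in the sham group and 59.1, 51.6, 52.5 and 68.9% in DOCA-salt mice. The means were 41.4% ± 5.65 and 58.0% ± 7.99 (SD, n = 4 mice each; two-sided exact permutation test, p = 0.0286, the smallest that 4 against 4 allows, adjusted p = 0.0286 over 2 shares). Of all assigned cells, gated cells were 1.32, 1.15, 1.44 and 1.24% in sham and 2.49, 2.46, 4.11 and 4.79% in DOCA-salt mice. The means were 1.29% ± 0.122 and 3.46% ± 1.18 (n = 4 each, exact p = 0.0286, adjusted p = 0.0286).

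The difference in means was larger below 20 gate UMIs than at 20 or more. Cells with 4 to 9 gate UMIs were 17.8% ± 3.55 of CD8 cells in sham and 28.8% ± 9.18 in DOCA-salt mice, whose ranges overlapped (12.8 to 21.1% and 17.2 to 39.3%). Cells with 10 to 19 were 1.85% ± 2.18 and 5.29% ± 0.876, without overlap (0 to 4.26% and 4.40 to 6.45%), on 3 and 21 cells and with no test. Cells with 20 or more were 21.9, 21.9, 26.3 and 17.0% of CD8 cells in sham and 35.5, 19.8, 8.20 and 32.4% in DOCA-salt mice. These means, 21.8% ± 3.80 and 24.0% ± 12.5, did not differ detectably (exact permutation test, n = 4 each, p = 0.800), and DOCA-salt mouse 3 lay below every sham mouse. In that mouse 15.6% of gated cells had 20 or more gate UMIs and 75.0% had 4 to 9. Of all assigned cells, those with 20 or more were 0.676% ± 0.0992 in sham and 1.33% ± 0.709 in DOCA-salt mice (exact p = 0.0857, adjusted p = 0.171).

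Depth differed between the libraries, so each cell was also thinned to 1500 UMIs, which left out 4 sham and 1 DOCA-salt CD8 cells and made the CD8 gate itself stricter. The gated share of CD8 cells was then 21.1% ± 6.05 in sham and 26.8% ± 10.2 in DOCA-salt mice (exact permutation test, n = 4 each, p = 0.343). Of assigned cells with 1500 or more UMIs, a smaller denominator than all assigned cells, it was 0.630% and 1.37% (exact permutation test, adjusted p = 0.0571). All CD8 cells together were 3.14% ± 0.424 of assigned cells in sham and 5.94% ± 1.73 in DOCA-salt mice, and low cells 1.85% ± 0.414 and 2.48% ± 0.868.

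**Figure D3:**
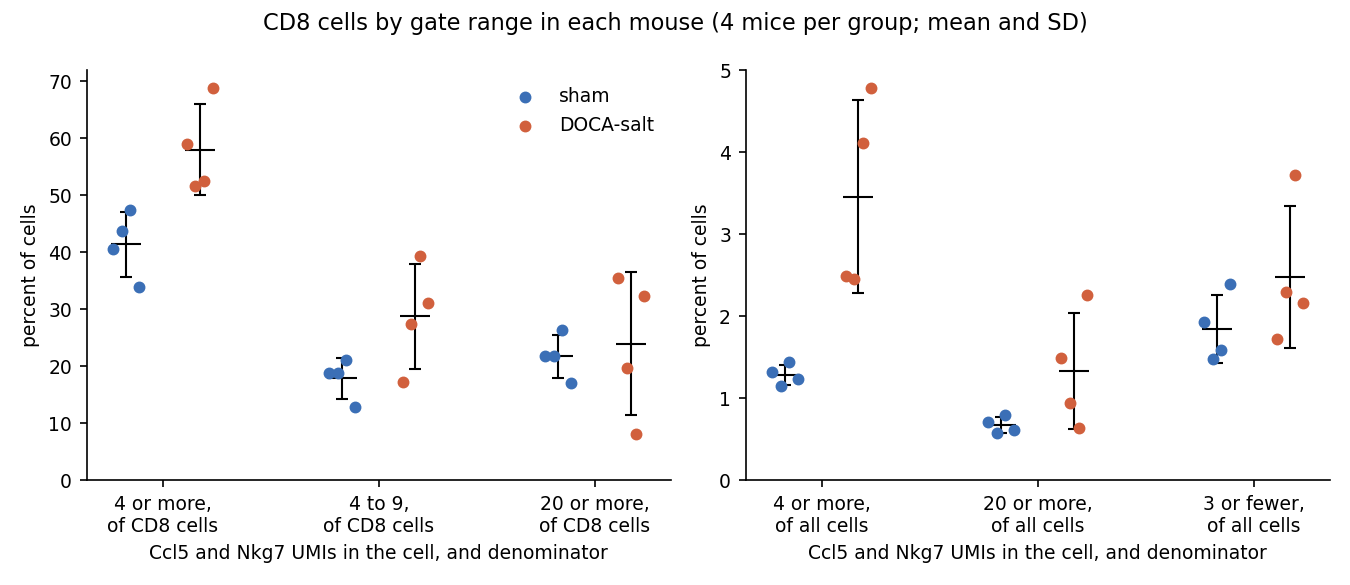
Points are mice, black marks the mean and SD of 4 mice; the vertical axes are percent of CD8 cells (left) and of all assigned cells (right), by range of Ccl5 and Nkg7 UMIs. The groups do not overlap for 4 or more UMIs (34.0 to 47.4% against 51.6 to 68.9% of CD8 cells) but do for 4 to 9 and for 20 or more.

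The second comparison asked which genes differed between DOCA-salt and sham mice within gated cells. Few did: 2 of 1955 genes tested passed an adjusted p of 0.05 (0.102%), both lower in DOCA-salt mice, by edgeR's quasi-likelihood test on UMIs summed per mouse. At an unadjusted p under 0.05 there were 148. The 2 groups did not overlap for 109 of 1955 genes (5.58%). Values below are CPM of the genes tested, after TMM scaling, and fold changes are log2 of DOCA-salt over sham.

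Malat1, an abundant nuclear long noncoding RNA, fell. It stood at 5556, 6942, 6788 and 6754 CPM in the sham group and 3633, 3694, 3207 and 3452 CPM in DOCA-salt mice (log2 -0.90 ± 0.10 SE, edgeR adjusted p = 5.29e-05). All 4 DOCA-salt mice were below all sham mice. Zfp36l2, which encodes an RNA-binding protein that promotes mRNA decay and restrains T cell activation, also fell. It stood at 465, 624, 705 and 607 CPM in the sham group and 362, 231, 347 and 246 CPM in DOCA-salt mice (log2 -1.02 ± 0.19 SE, edgeR adjusted p = 0.0290), with no overlap. Its call was lost in 8 of 17 alternatives (adjusted p 0.00694 to 0.813), among them leaving out sham mouse 2 (0.204), 3 (0.111) or 4 (0.0842), or DOCA-salt mouse 2 (0.139) or 4 (0.105). Malat1 lies on chromosome 19 at 5795690 to 5802672, and Zfp36l2 on chromosome 17 at 84183931 to 84187947.

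Both genes were also lower in the low cells. In low cells 7 of 1747 genes passed (0.401%), all lower in DOCA-salt mice: Malat1, Zfp36l2, Txnip, Btg1, Rpl35a, Psmb9 and H2-Eb1. Low cells of sham mouse 2 held 7693 CPM of B cell markers against 1276 to 1500 CPM in the other sham mice, which touches H2-Eb1; its part was not tested. In low cells Malat1 had a log2 change of -0.91 ± 0.09 SE (edgeR adjusted p = 7.59e-06) and Zfp36l2 one of -0.91 ± 0.18 SE (adjusted p = 0.0202). The difference between the 2 changes was 0.01 for Malat1 and -0.13 for Zfp36l2, and no gene of 2319 passed this interaction test (90 at an unadjusted p under 0.05). In B cells of the same mice Malat1 averaged 10211 ± 370 and 6034 ± 201 CPM of all RNA UMIs, and in NK cells 8273 ± 648 and 5669 ± 476 CPM (SD, n = 4), again without overlap. Zfp36l2 averaged 496 ± 90.2 and 258 ± 13.5 CPM in B cells, without overlap. In NK cells it averaged 698 ± 128 and 516 ± 96.1 CPM and in CD4 T cells 517 ± 237 and 297 ± 47.6 CPM, where the groups overlapped. The part of library preparation in these differences cannot be told apart from treatment.

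Tests of a gate gene within the gate are no independent result, since its UMIs helped choose the cells. Ccl5 itself, a gate gene, did not pass the threshold. It stood at 19251, 9606, 11900 and 9296 CPM in the sham group and 6862, 6335, 4243 and 8186 CPM in DOCA-salt mice (log2 -0.96 ± 0.20 SE, edgeR adjusted p = 0.0508), without overlap. It passed in 5 of 18 alternatives, among them RLE size factors (0.0480) and leaving out sham mouse 4 (0.0200). Its log2 difference ranged from -1.11 to -0.37 over them and was -0.64 without sham mouse 1 and -0.37 after thinning (adjusted p = 0.264 and 0.905). The gate held cells of the upper range at 52.4% ± 2.80 in sham and 40.2% ± 18.7 in DOCA-salt mice (SD, n = 4). Among cells with 20 or more gate UMIs alone, also chosen on Ccl5, its log2 difference was -0.49 ± 0.30 SE (edgeR adjusted p = 0.514). There the groups overlapped. NK cells, which the gate did not touch, averaged 20321 ± 1507 CPM of all RNA UMIs of Ccl5 in the sham group and 15077 ± 1221 in DOCA-salt mice, without overlap. CD4 T cells averaged 413 ± 648 and 473 ± 352 CPM of Ccl5, and B cells 285 ± 61.1 and 378 ± 158 CPM. In these classes the DOCA-salt mean was the higher and the groups overlapped. The other markers did not differ detectably. Cd8b1 averaged 2154 ± 75.5 and 2124 ± 112 CPM (log2 -0.02 ± 0.10 SE, adjusted p = 0.991), and Cxcr3 164 ± 123 and 139 ± 58.5 CPM (-0.33 ± 0.40 SE, adjusted p = 0.908). Xcl1 was too low to be tested, with a UMI in 11.5% of sham and 9.75% of DOCA-salt gated cells.

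Among other genes with the smallest unadjusted p and no overlap, the following did not pass the adjusted test and are given as values. Txnip, an inhibitor of glucose uptake, averaged 770 ± 137 and 460 ± 64.4 CPM (log2 -0.76, edgeR adjusted p = 0.0508), and the G protein subunit Gnai2 586 ± 79.2 and 346 ± 23.8 CPM (-0.74, adjusted p = 0.0508). Txnip passed in 4 of 17 alternatives and Gnai2 in 3 of 17 (adjusted p 0.0210 to 0.813 and 0.0480 to 0.379). Vim (vimentin) averaged 987 ± 124 and 1530 ± 260 CPM (0.61, adjusted p = 0.118). Bub3, a mitotic checkpoint protein, had a log2 difference of 1.10, the translation factor Eif1b of 1.14, Satb1 of 0.89 and the proteasome subunit Psmb3 of 0.53 (adjusted p 0.307 to 0.369).

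In the upper range alone, 3 of 546 genes passed, in a fit chosen after seeing the data. Malat1 fell (log2 -1.01 ± 0.14 SE, edgeR adjusted p = 0.00256), as did Txnip, from 1145, 1268, 1015 and 1287 CPM in sham to 638, 512, 269 and 612 CPM in DOCA-salt mice (-1.11 ± 0.23 SE, adjusted p = 0.0417). Gapdh, a glycolytic enzyme, rose from 2347, 2420, 1713 and 2486 CPM to 3441, 4193, 4531 and 3893 CPM (0.82 ± 0.16 SE, adjusted p = 0.0417). Over all gated cells Gapdh had a log2 difference of 0.38 ± 0.12 SE (adjusted p = 0.369). S100a6 averaged 1407 and 3717 CPM in the upper range (1.30 ± 0.34 SE, adjusted p = 0.106) and Vim 1599 and 3738 CPM (1.19 ± 0.28 SE, adjusted p = 0.0755); neither passed. DOCA-salt mouse 3 gave only 5 such cells, as did sham mouse 3.

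**Figure D4:**
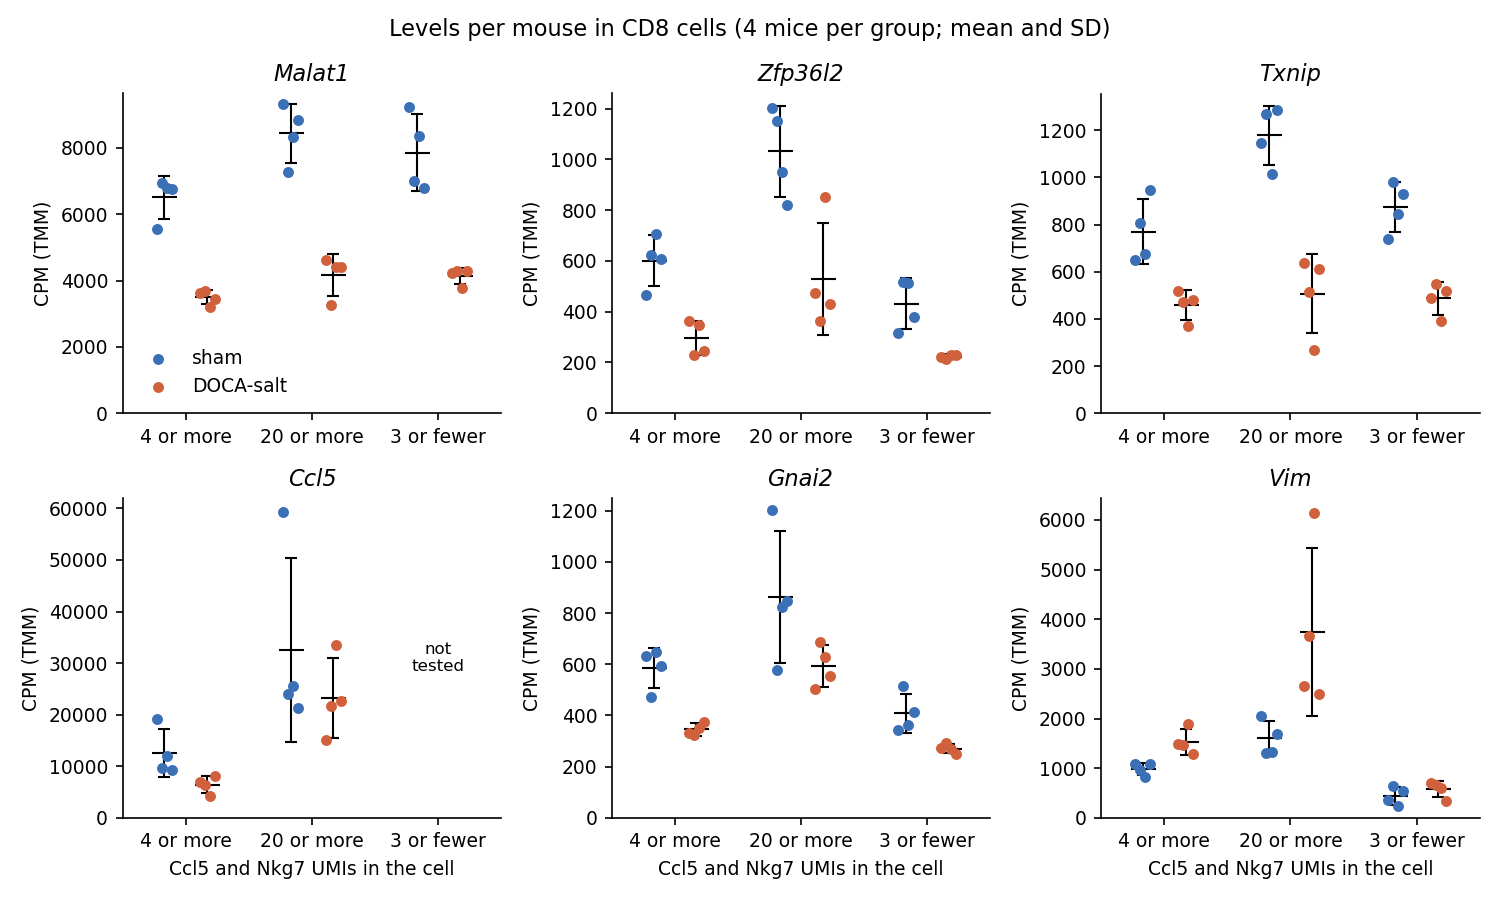
Points are mice, black marks the mean and SD of 4 mice; the vertical axis is TMM-scaled CPM of the genes tested in each range of Ccl5 and Nkg7 UMIs, so levels are comparable within and not between ranges. Malat1 is lower in every DOCA-salt mouse in all 3 ranges, while Ccl5, a gate gene, does not overlap at 4 or more and overlaps at 20 or more.

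Gene groups moved little by the adjusted test. Of 15 early response factors tested, 1 (Zfp36l2) passed and was lower, beside 2 of all 1955 genes (0.102%), Zfp36l2 among them. In this list 12 of 15 lay below zero, with a median log2 difference of -0.60 against 0.00 over all 1955 genes. The phosphatase genes Dusp1 and Dusp2 and the AP-1 subunit Jun had log2 differences of -1.06, -0.95 and -0.91 (edgeR adjusted p 0.273 to 0.731). In low cells the median of this list was -0.29 against 0.01 over all genes. There 2 of 14 members passed, both lower, beside 7 of all 1747 genes (0.401%). Of 7 survival and growth genes none passed; the median was 0.44, with Pim2 at 0.78, Myc at 0.66 and Bcl2, an inhibitor of cell death, at 0.54, and in low cells it was 0.69. The 10 MHC class I genes tested all lay below zero, none past the threshold, with a median of -0.16 and H2-D1 at -0.37 (adjusted p = 0.273).

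None of the lists of T cell identity and function had a member past the threshold. Of 14 naive identity genes 9 lay below zero (median -0.16; Actn1 0.65, Igfbp4 -0.37), and of 13 memory and effector genes 8 (median -0.20; Slamf7 -0.80, S100a6 0.70). The median over all genes tested was 0.00. The 9 cytotoxic granule genes had a median of -0.09, with the granzyme Gzmk at 0.79, perforin Prf1 at -0.69 and Gzmb at 0.40. Gzma stood at 4274, 60.9, 29.4 and 1012 CPM in the sham group and 937, 2148, 446 and 958 CPM in DOCA-salt mice, a spread within sham that covered the whole DOCA-salt group. The 3 killer receptors tested, Klrk1, Klrc1 and Klrd1, had -0.72, -0.65 and -0.36, and the 17 T cell receptor signalling genes a median of -0.09. The 6 chemokine and egress receptors had a median of 0.02, the 2 residency genes tested 0.16, the 3 chemokine and cytokine genes -0.01, the 9 interferon-stimulated genes -0.14, the 2 cell cycle genes 0.14, the 3 corticosteroid response genes -0.47, with Sgk1 at -0.47 and Tsc22d3 at -0.22, and the 1 inhibitory receptor, Cd160, -0.65. Upper-range cells were 52.4% ± 2.80 of gated cells in sham and 40.2% ± 18.7 in DOCA-salt mice. The part of this mix in the list values was not tested. In the upper range alone Gzmk, Gzmb and S100a6 had log2 differences of 1.04, 0.83 and 1.30. Klrk1, Klrc1 and Klrd1 had -0.37, -0.50 and -0.53 there, and none of these genes passed.

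RNA of other cell types was present at low level in both groups. The summed CPM of 11 B cell markers in gated cells ranged over mice from 676 to 1160 in sham and from 703 to 972 in DOCA-salt, with Ighd at 0 in all sham mice. That of 11 macrophage and monocyte markers ranged from 345 to 684 and from 488 to 804, that of 9 NK markers, Gzma included, from 192 to 3976 and from 687 to 2092, that of 10 markers of other T cells from 0 to 73.3 and from 8.79 to 42.2, that of 4 neutrophil markers from 0 to 0 and from 8.87 to 29.3, and that of 14 markers of heart tissue and blood from 97.7 to 141 and from 31.0 to 45.8. Ncr1 was at 0 by the gate. Their part in the differences was not tested. With no C1q UMI allowed in a cell, the gated share of CD8 cells was 13.9 percentage points higher in DOCA-salt mice (adjusted p = 0.114).

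Of the 16 surface antibodies, none differed between groups after adjustment, and 4 reached the smallest possible exact permutation p of 0.0286 (n = 4 each, adjusted p = 0.114). Values are CPM of the UMIs of these antibodies. CD39, an enzyme that degrades extracellular ATP, stood at 86660, 78904, 103843 and 94005 in sham and 37603, 32889, 42341 and 44759 in DOCA-salt mice (log2 difference -1.21). CD64 and CD80 had log2 differences of -0.85 and -0.66, and CD8a one of 0.39, each without overlap. Low cells had differences of -1.15, -0.66, -0.56 and 0.23 for the same 4 antibodies. In the upper range they were -0.98, -0.89, -0.44 and 0.28 (exact permutation test, adjusted p = 0.114 for the first 3 and 0.411 for CD8a). The CD8a antibody was lower in upper-range than in low cells. Upper-range cells were 52.4% ± 2.80 of gated cells in sham and 40.2% ± 18.7 in DOCA-salt mice. The part of this mix in the CD8a difference was not tested. CD64 and CD80 differed little between gated and low cells of a mouse (mean log2 0.11 and 0.08). Each value is a share of 1 antibody total, so a lower share of some antibodies raises that of others. Whether the signal was surface protein of these cells or background binding was not tested. CD44 in gated cells differed by 0.04 (exact permutation test, adjusted p = 0.857), and was higher in gated than in low cells in 7 of 8 mice.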

How the data were processed

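UMI counts per gene, hashtag and surface antibody were analysed as deposited, in 1 matrix per group; they carry no normalization. Per the file headers and the submitters' processing notes, the authors made these counts with Cell Ranger (software version 3.1.0 in the matrix header) on mm10; Seurat 4 is also named, with no role, and other settings are not given in the sources used here. Whether the 10x matrices had doublets removed is likewise not given.

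Cells with at least 200 genes, at most 10% mitochondrial UMIs and a top hashtag at least 2 times the second were kept and assigned to a mouse. The hashtag gives the mouse because the labels name 4 biological replicates per group. The gate, the gene lists and the tests were chosen with earlier results of these data known. Shares and antibodies were compared over mice with two-sided exact permutation tests, adjusted by Benjamini-Hochberg. UMIs were summed per mouse and tested with edgeR 4.0.16 (quasi-likelihood, filterByExpr, TMM) in R 4.3.3, adjusted over all genes tested. The test was first checked on data simulated for gated cells, with 1815 genes and 7 false calls. Among these genes, 68 of 87 changed 2-fold (78.2%) and 81 of 82 changed 4-fold (98.8%) were recovered. These shares cover only the genes so counted, and recovery in the measured data was not tested. A difference between the gated and the low cells was tested with mouse as a block.

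Named genes were Cd8b1, Ccl5, Cxcr3 and Xcl1; genes past an adjusted p of 0.05 at 50 CPM or more without overlap; with fewer than 5 such genes, the 5 per direction with the smallest p; up to 4 members of each list (some are not reported here); and, beside low cells, up to 15 genes per direction at 100 CPM or more in all 8 mice. Gene models, ribosomal, mitochondrial, haemoglobin, sex-linked and receptor V genes stayed out of the ranking by p. Scrublet ran in scanpy 1.11.5 and DESeq2 1.42.0 was an alternative. Cells with 20 or more gate UMIs were an alternative chosen after seeing the data. The 95% intervals of shares are exact (Clopper-Pearson). B cells (3 or more UMIs of Cd79a, Cd79b and Ms4a1), CD4 T cells and NK cells (a Ncr1 UMI) were gated in the same way to give background levels.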

Additional observations from a re-analysis of the deposited data

Results flagged for a closer look

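Among 64 groups of 4 mice examined, 3 had 1 mouse far from the other 3, where chance alone gives about 1 in 20. Malat1 in gated cells stood at 5556 CPM in sham mouse 1 against 6754 to 6942 CPM in the other sham mice. The NK1.1 antibody stood at 11762 CPM of the antibody UMIs in DOCA-salt mouse 1 against 6838 to 7439. The TIGIT antibody stood at 5838 CPM in sham mouse 3 against 7014 to 7066.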

How the results depend on the processing

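The share of gated cells among CD8 cells was 16.6 percentage points higher in DOCA-salt mice, and 13.9 points with no C1q UMI (adjusted p = 0.114), 15.9 with gated cells at 6 UMIs or more and cells at 2 to 5 left out (0.0571), 5.71 after thinning (0.343) and 2.20 at 20 or more (0.800), all short of the threshold. Of all assigned cells, the 2.17 points became 1.18, 1.49 and 0.737 (adjusted p = 0.0571 each) and 0.657 (0.171). Without 1 mouse the 2 shares gave 13.0 to 18.7 and 1.73 to 2.51 points; 3 mice against 4 cannot go below an exact p of 0.0571. Genes passing in gated cells numbered 6 with RLE size factors, 7 with a hashtag margin of 5, 4 with a mitochondrial limit of 5%, 1 each with DESeq2, with no C1q UMI and after thinning (147 genes tested), 49 with no low-count filter (38 higher, 11 lower, median log2 0.35) and 1 to 2 without 1 mouse. DESeq2 put the median of all genes at -0.14. In low cells they numbered 32 with no filter, 17 with DESeq2, 1 with no C1q UMI and 5 to 10 without 1 mouse. The interaction gave 4 with no filter and 0 to 1 without 1 mouse. The count of antibodies passing was 0 throughout, which says nothing of stability, since exact tests of this size could hardly pass the adjustment. Malat1 passed in 18 of 18 alternatives. Cd8b1 changed sign to 0.22 with no filter, to 0.01 at 20 or more and ranged from -0.05 to 0.03 without 1 mouse; Cxcr3 ranged from -0.62 to 0.22. No paired analysis was possible because hashtag numbers mark mice within 1 library. With 9 to 16 gated cells per sham mouse, small differences were not detectable. The causes were not tested.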
